A study of Rattus norvegicus with 10 samples.

Results

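Vasopressin (Avp), oxytocin (Oxt) and 3 genes tied to the control of their transcripts, Creb3l1, Caprin2 and Giot1, were followed in the supraoptic nucleus of the rat hypothalamus. These 5 genes were taken by name from a deposited table of 32623 rat genes, in which each name stood on 1 row. The samples came from male Sprague-Dawley rats of 250 to 300 g, an outbred strain kept with free access to food and water. Each rat had been given an adeno-associated virus coding for a hairpin RNA against Opn3, an opsin, in the nucleus of one side. The labels' wording for the control hairpin is unclear and was read here as its delivery to the opposite nucleus of the same rat. Tissue was taken 2 weeks later with a 1 mm punch from 100 µm sections, and RNA was extracted from each nucleus alone. There were 5 samples with the control hairpin (shControl) and 5 with the hairpin against Opn3 (shOpn3), numbered 1 to 5 in both groups. All 10 nuclei had thus received a virus and a hairpin. Which side received which, the promoter of the viruses, the number of cells they reached and the number of hairpins against Opn3 were not given in the sources used here.

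Vasopressin and oxytocin are made by largely separate magnocellular neurons of this nucleus as parts of larger precursors, each with a neurophysin that carries the peptide down the axon to the posterior pituitary. Osmotic stimuli raise their transcripts. Creb3l1 codes for a transcription factor anchored in the membrane of the endoplasmic reticulum, which is cut free by proteases and can activate the Avp promoter. Caprin2 codes for an RNA-binding protein that binds the Avp transcript and favours a long poly(A) tail on it. Giot1 was named for a transcription factor induced by gonadotropin in the ovary and belongs to the zinc finger family.

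Upstream sequences are shown first because Avp and Oxt are neighbours in the genome and were both lower in shOpn3, while Giot1 was not. In the RefSeq table of assembly GRCr8, Oxt and Avp lie on chromosome 3 on opposite strands with no other gene between them, and all 5 genes had an entry. The stretches printed hold the 250 bases before the gene's start, 5′ to 3′ on the gene's own strand: chr3:138248523-138248772 on the minus strand for Avp, chr3:138235504-138235753 on the plus strand for Oxt, and chr7:10886966-10887215 on the minus strand for Giot1. Capitals mark any match, on either strand, to TGACGTCA (the full cyclic AMP response element), TGACG (its core, contained in the full element), TGANTCA (the AP-1 element), CACGTG (the E-box or G-box core) or TGACC (a nuclear receptor half-site).
Avp: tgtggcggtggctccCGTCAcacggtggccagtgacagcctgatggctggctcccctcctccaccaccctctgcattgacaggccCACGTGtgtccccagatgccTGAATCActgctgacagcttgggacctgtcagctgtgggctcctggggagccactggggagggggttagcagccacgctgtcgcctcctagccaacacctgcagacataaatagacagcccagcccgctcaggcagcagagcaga
Oxt: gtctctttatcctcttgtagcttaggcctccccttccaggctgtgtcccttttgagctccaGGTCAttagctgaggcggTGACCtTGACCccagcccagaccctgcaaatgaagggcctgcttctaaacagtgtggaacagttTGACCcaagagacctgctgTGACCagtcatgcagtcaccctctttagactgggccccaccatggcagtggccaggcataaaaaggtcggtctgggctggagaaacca
Giot1: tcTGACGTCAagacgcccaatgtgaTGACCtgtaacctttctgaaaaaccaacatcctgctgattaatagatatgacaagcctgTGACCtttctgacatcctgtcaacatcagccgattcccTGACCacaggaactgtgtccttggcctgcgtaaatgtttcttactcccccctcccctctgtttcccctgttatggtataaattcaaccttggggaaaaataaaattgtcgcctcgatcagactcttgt
Avp had 1 match to CACGTG at -165 to -160, counted from -1 at the last base before the start, and 1 to TGANTCA at -145 to -139. It also had 1 match to TGACG, on the other strand, at -235 to -231. Oxt had 5 matches to TGACC and none to the other 4 motifs. Giot1 held the full element TGACGTCA at -248 to -241 and 3 matches to TGACC. The windows of Caprin2 and Creb3l1 held 0 matches to any of the 5 motifs. Among 33469 upstream windows of this length, 1.59% held TGACGTCA, 18.2% TGACG, 6.34% TGANTCA, 5.59% CACGTG and 35.4% TGACC. A match describes the letters of this window and nothing about binding.

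The libraries held between 33158341 and 39958578 reads, and the size factors lay between 0.942 and 1.07, so that a normalized count, a read count divided by its library's size factor, was close to a read. Opn3, the target, had 261 to 1007 normalized counts in shControl and 145 to 290 in shOpn3 (log2 difference -1.82, SE 0.320, limma adjusted p = 0.00226), and the groups overlapped through shControl replicate 5 alone. Markers of other cells also moved, to be set beside the 18.8% of all genes tested that were called (10.4% higher, 8.48% lower). Of 8 oligodendrocyte markers 8 were lower in shOpn3, with sums of 731561 to 1244843 normalized counts in shControl and 248955 to 470326 in shOpn3, and of 8 microglial markers 7 were higher (summed counts 9162 to 12900.1 and 17080.2 to 35216). Astrocyte markers were higher for 3 of 8 genes, and of 10 general neuronal markers 1 was higher and 2 were lower, a split of 1 and 0 without shOpn3 replicate 3 and of 4 and 1 without shOpn3 replicate 4. Slc17a7, the vesicular glutamate transporter of cortical neurons, stood at 56.0 to 379.8 in shControl and at 556 to 1991 in shOpn3 (log2 difference 2.88, SE 0.528, limma adjusted p = 0.00285). It was the only gene called of the 5 glutamatergic and GABAergic markers, of which Slc17a6 had a log2 difference of -0.18 and Slc32a1, Gad1 and Gad2 of 0.16, 0.47 and 0.31. Of the markers of neurons of the suprachiasmatic nucleus, another hypothalamic source of Avp, limma called 0 of 4 tested at the adjusted threshold and 1 at an unadjusted p under 0.05, edgeR 1, and DESeq2 1 higher and 1 lower, with sums of 129 to 191 and 135 to 392. Npy, a marker of other hypothalamic peptide neurons, stood at 0 in all libraries, as did Pcsk1n, a gene of precursor processing. A 0 throughout cannot tell an absent transcript from reads that were not counted. The 7 markers of other hypothalamic peptide neurons, Npy included, summed to 1905 to 2256 and 1166 to 1608. Of the 3 tested, limma called 0 at the adjusted threshold and 1 at an unadjusted p under 0.05, edgeR 0, and DESeq2 2 lower among 6. They did not move alike, with log2 differences of -1.35 for Pmch, -0.42 for Tac1 and 0.80 for Sst, which was called higher with the replicate block (limma adjusted p = 0.00645). The part of these shifts in the results that follow was not tested. In a punch of tissue, fewer magnocellular neurons and less transcript per neuron cannot be told apart.

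Avp, Oxt and Caprin2 were lower in the shOpn3 nuclei, and Creb3l1 and Giot1 were not called in the main fit, which had no block. With the replicate number as a block Giot1 was called higher (limma adjusted p = 0.0235), as were 15.1% of all genes tested. Avp and Oxt were left at 21.4% and 20.6% of their control means and Caprin2 at 29.8%, whereas Creb3l1 stood at 89.7% and Giot1 at 123%. All 5 members passed the filter on low values, a mean of at least 10 normalized counts. The 3 calls without the block, at a limma adjusted p under 0.05, compare with 18.8% of all 15597 genes tested. Of all genes, 8.48% were called lower and 10.4% higher. Groups that did not overlap were found for 2 members, Avp and Oxt, against 15.3% of all genes tested and 7.23% in that direction. All 5 same-numbered pairs moved one way for 4 members, lower for 3 and higher for Giot1, against 39.4% of genes in either direction and 20.7% lower.

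**Figure D1:**
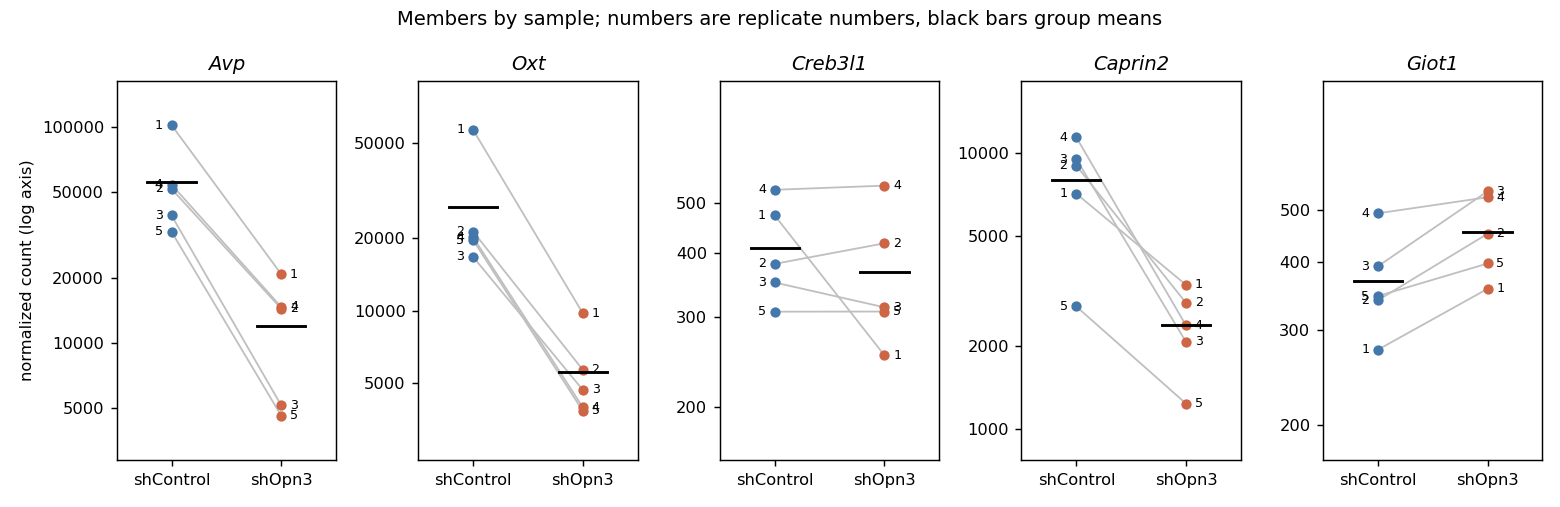
Normalized counts (log axis) of the 5 genes in the 5 shControl (blue) and 5 shOpn3 (orange) samples, with grey lines joining samples of the same number and black bars at the group means. All 5 lines fall for Avp, Oxt and Caprin2 and all 5 rise for Giot1, while shControl replicate 5 (2780) lies inside the shOpn3 range for Caprin2.

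Avp (ENSRNOG00000021229) had 102261, 51818, 39048, 54257 and 32813 normalized counts in shControl replicates 1 to 5 and 20888, 14469.6, 5159, 14727 and 4619 in shOpn3 replicates 1 to 5. The lowest control sample lay above the highest shOpn3 sample, and replicate 1 was the highest of each group. Within the shOpn3 group, replicates 3 and 5 lay well under the others. Avp fell by 2.35 on the log2(normalized count + 1) scale (SE 0.426, 95% interval -3.28 to -1.43; limma adjusted p = 0.00269), and 5 of 15597 genes, itself included, had a difference at least as far below 0. Against the same-numbered control nucleus, 20.4%, 27.9%, 13.2%, 27.1% and 14.1% was left in replicates 1 to 5. The transcript took 0.155% ± 0.0793 of all reads in shControl and 0.0346% ± 0.0203 in shOpn3 (SD over 5 nuclei each).

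Oxt (ENSRNOG00000021225) had 56716, 21354, 16742, 20223 and 19698 normalized counts in shControl replicates 1 to 5 and 9739, 5660, 4665, 3943 and 3810 in shOpn3 replicates 1 to 5. Again replicate 1 was the highest of both groups, and in the control group it stood far from the others, which lay close together. The difference was -2.21 on the log2 scale (SE 0.328, 95% interval -2.92 to -1.49; limma adjusted p = 0.000915), and -1.90 without shControl replicate 1. The remainder in the same-numbered pairs was 17.2%, 26.5%, 27.9%, 19.5% and 19.3%. These pairs spread less than those of Avp, with a mean log2 pair difference of -2.21 ± 0.31 for Oxt and -2.35 ± 0.51 for Avp (SD, n = 5 pairs each). For both genes the exact two-sided permutation test of the group labels gave p = 0.00794, the smallest that 5 against 5 samples allow. Avp and Oxt share a closely similar stretch that codes for the neurophysins, so reads from it may have been assigned to either gene or to none.

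Together Avp and Oxt made up 0.147% to 0.452% of the reads in shControl and 0.0247% to 0.0898% in shOpn3. The counts of Avp per count of Oxt within a sample were 1.80, 2.43, 2.33, 2.68 and 1.67 in shControl replicates 1 to 5, and 2.14, 2.56, 1.11, 3.73 and 1.21 in shOpn3 replicates 1 to 5. These are ratios of read counts that are not corrected for transcript length. The shOpn3 ratios extended beyond the control range on both sides, with replicates 3 and 5 low and replicate 4 high. Their mean did not differ detectably (log2 difference -0.15; exact two-sided permutation test, p = 0.683, adjusted p = 0.683 over the 10 pairs of members), with pair differences from -1.08 to 0.48.

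**Figure D2:**
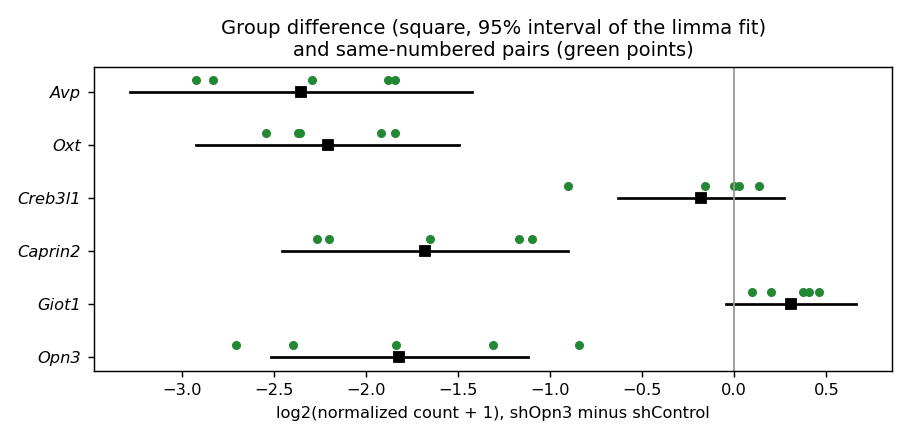
Differences in log2(normalized count + 1), shOpn3 minus shControl, for the 5 genes and Opn3, as the limma estimate (square) with its 95% interval (line) and as the 5 same-numbered pairs (green points). The intervals of Avp, Oxt, Caprin2 and Opn3 lie below 0, and those of Creb3l1 (-0.63 to 0.27) and Giot1 (-0.05 to 0.66) include it.

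Creb3l1 (ENSRNOG00000005413) had 473, 381, 350, 531 and 307 normalized counts in shControl replicates 1 to 5 and 252.3, 417, 313, 541 and 307 in shOpn3 replicates 1 to 5. The groups overlapped almost fully. Its log2 difference was -0.18 (SE 0.208, 95% interval -0.63 to 0.27; limma adjusted p = 0.595), and an exact two-sided permutation of the samples gave p = 0.476. As a fold the interval ran from 0.645 to 1.21. Within pairs, 53.3% was left in replicate 1 and 109.7%, 89.4%, 102% and 100.1% in replicates 2 to 5. Without both samples of replicate 1 the log2 difference was 6.24e-05 (SE 0.213, limma adjusted p = 0.9998), so the size of the estimate rested on that pair.

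Caprin2 (ENSRNOG00000047319) had 7127, 9006, 9518, 11405 and 2780 normalized counts in shControl replicates 1 to 5 and 3329, 2865, 2068, 2372 and 1236 in shOpn3 replicates 1 to 5. Control replicates 1 to 4 lay above every shOpn3 sample, and shControl replicate 5 lay under shOpn3 replicates 1 and 2. Caprin2 fell by 1.68 on the log2 scale (SE 0.357, 95% interval -2.45 to -0.90; limma adjusted p = 0.00648), and an exact two-sided permutation of the samples gave p = 0.0238. Without shControl replicate 5 the difference was -2.02, and 29 of 15597 genes, itself included, had a difference at least as low as -1.68 in the fit of all samples. In every pair the shOpn3 sample was lower, with 46.7%, 31.8%, 21.7%, 20.8% and 44.5% left in replicates 1 to 5. For Opn3 the same pairs kept 40.3%, 27.9%, 18.9%, 15.3% and 55.6%. Both genes thus kept least in replicate 4, then 3, then 2, and most in replicates 1 and 5. For Avp, by contrast, replicates 3 and 5 kept least, and replicates 2 and 4 most.

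Giot1 (ENSRNOG00000051563) had 275, 340, 393, 492 and 346 normalized counts in shControl replicates 1 to 5 and 357, 451, 541, 527 and 398 in shOpn3 replicates 1 to 5. The groups overlapped, yet every shOpn3 sample lay above its same-numbered control, at 129.7%, 133%, 138%, 107% and 115% of it. That all 5 pairs were higher was seen for 18.7% of all genes tested. The log2 difference was 0.31 (SE 0.163, 95% interval -0.05 to 0.66; limma adjusted p = 0.217). When the replicate number was fitted as a block, that difference passed the threshold (SE 0.0818, limma adjusted p = 0.0235), as it did with the block in edgeR (adjusted p = 0.0253) and DESeq2 (adjusted p = 0.0262). With that block 30.3% of all genes tested were called, and 15.1% were called higher. The exact sign-flip test over 5 pairs gave p = 0.0625, the smallest it allows. Giot1 has close relatives among rat zinc finger genes, and reads from a shared stretch may have been assigned to any of them or to none.

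Whether members changed by different amounts was tested on their ratios within a sample, which do not depend on the scaling between libraries. Of the 10 pairs of members, 6 ratios differed between the groups (exact two-sided permutation tests, adjusted p = 0.0265 for each). They are the ratios of Avp, Oxt and Caprin2 to Creb3l1 and to Giot1. Each thus sets a member called lower in the main fit against a member not called there, and largely restates those calls. How often ratios of other genes differ, move one way in all pairs or do not overlap was not computed. Relative to Creb3l1 the log2 change was -2.17 for Avp and -2.02 for Oxt. Creb3l1 over Caprin2 rose by 1.50. Relative to Giot1 it was -2.66 for Avp, -2.51 for Oxt and -1.99 for Caprin2. For each of the 6, all 5 pairs moved one way. The call of Creb3l1 over Caprin2 was lost (adjusted p = 0.0529, values from 1.33 to 1.52) without any one of shControl replicates 2, 3 and 4 or shOpn3 replicates 2, 3, 4 and 5.

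The remaining ratios were not called. Avp over Caprin2 changed by -0.68 (adjusted p = 0.238, pair differences from -1.66 to 0.38) and Oxt over Caprin2 by -0.53 (adjusted p = 0.414, pair differences from -1.44 to 0.36). For both of these the 2 highest shControl ratios were those of replicates 1 and 5. Creb3l1 over Giot1 differed by -0.49 (adjusted p = 0.0794) and was lower in 5 of 5 pairs, with pair differences from -1.28 to -0.07. With the pairs as the unit, exact sign-flip tests cannot go below p = 0.0625 and so could not call any of the 10 ratios.

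**Figure D3:**
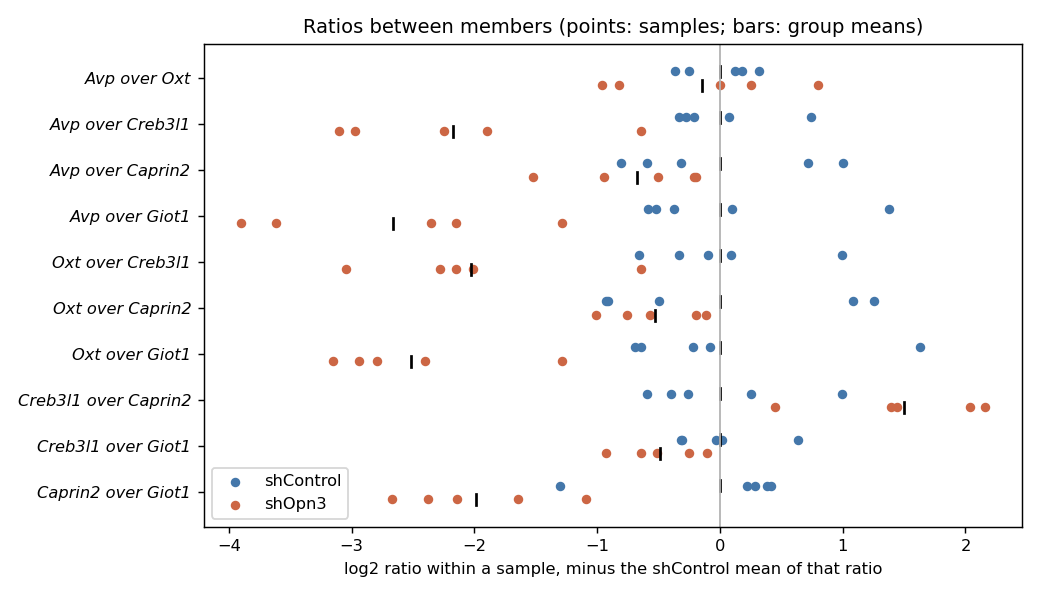
Log2 ratios between members within each sample, minus the shControl mean of the same ratio (points, blue for shControl and orange for shOpn3; black bars, group means). Avp over Creb3l1, Avp over Giot1 and Oxt over Giot1 have groups that do not overlap, and the shOpn3 ratios of Avp over Oxt spread on both sides of the controls.

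For each member, the genes with the most similar profile over the 10 samples were taken as those with the smallest root-mean-square difference of log2 values, after each gene was centred on its own mean. There were 15432 named genes to choose from. The nearest to Caprin2 was Opn3 itself, at 0.25 on the log2 scale, and Caprin2 was in turn the nearest to Opn3. When each gene was centred on the mean of its own group, a choice made after the data had been seen, 1 gene lay nearer in either direction. Centred in that way, 19 genes lay nearer to Avp than Oxt did, and 2735 lay nearer to Oxt than Avp did (0.50). This distance depends on how far each gene spreads as well as on direction, so genes that vary little can lie near. The counts therefore do not measure whether Avp and Oxt vary together. Next to Caprin2 came RGD1560925 (0.32) and Cngb1 (0.33), a subunit of cyclic nucleotide-gated channels. In shControl replicate 5, RGD1560925 and Cngb1 were at 135 and 108 normalized counts, each the lowest of its control group.

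**Figure D4:**
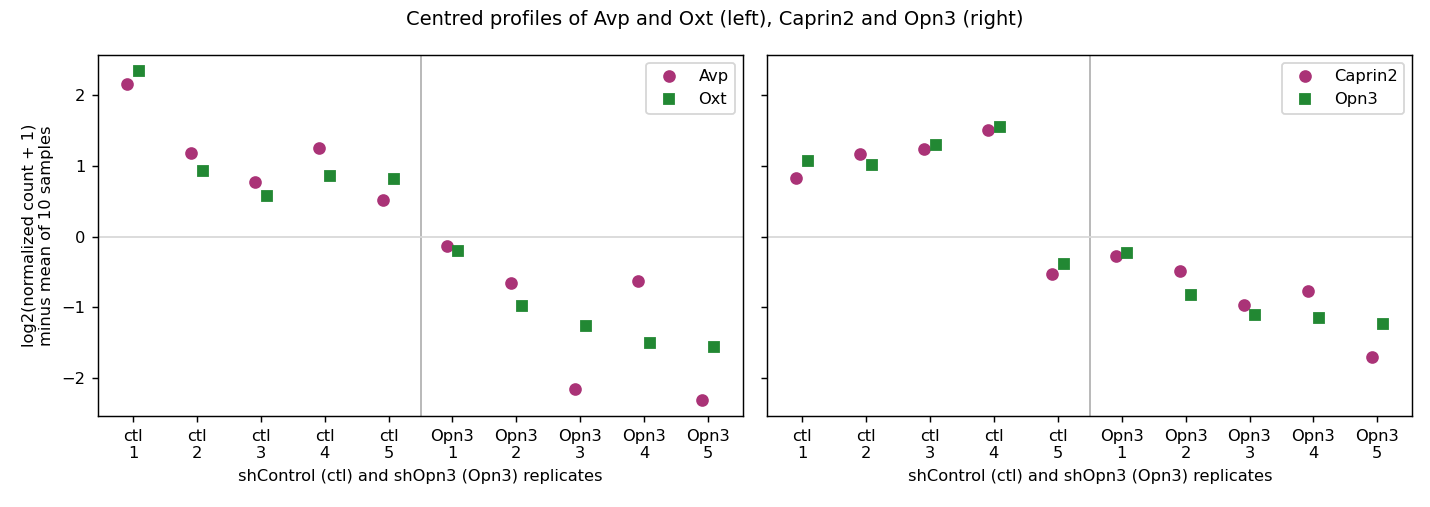
Log2(normalized count + 1) of Avp and Oxt (left) and of Caprin2 and Opn3 (right) in each sample, minus the gene's mean over the 10 samples; samples of a group have no order. Caprin2 and Opn3 follow each other, including the low shControl replicate 5, while Avp and Oxt part in shOpn3 replicates 3, 4 and 5.

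Avp and Oxt had Tmem114 in common as a near profile. Nearest to Avp were Tmem114 (0.41), which codes for a membrane protein, Oxt (0.51) and Ebf3 (0.54), a transcription factor of neurons. Nearest to Oxt were Prph (0.33), which codes for the intermediate filament peripherin, Tmem114 (0.37) and Otp (0.37), a homeobox factor needed for magnocellular neurons. Prph had 421, 217, 182, 181 and 263 normalized counts in shControl replicates 1 to 5 and 139, 78.6, 39.2, 43.5 and 56.5 in shOpn3 replicates 1 to 5, with no overlap. Its log2 difference was -1.89 (SE 0.336, limma adjusted p = 0.00241). Giot1 lay nearest to Zfp600 (0.09), another zinc finger gene, then Laptm4a (0.10) and Arhgap42 (0.10), none of which was called without the block. Creb3l1 lay nearest to Foxd1 (0.16), Slc16a4 (0.16) and Zpbp (0.18), none of them called either. Each of these nearness values includes the difference between the groups, and no shared function is implied. A gene picked as near therefore tends to share the member's group difference by that choice. The calls and overlaps given for such genes add no separate evidence.

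Genes around the members were read from 9 lists, to be set beside the 18.8% of all genes tested that were called, and the 30.3% called with the block. In the list of cyclic AMP response element binding (CREB) factors and their coactivators, 1 of 10 genes tested was called. This was Rasd1, a small G protein that restrains cyclic AMP signalling to Avp, which averaged 708 ± 77.9 normalized counts in shControl and 407 ± 105 in the other group (SD over 5 nuclei; log2 difference -0.82, SE 0.153, limma adjusted p = 0.00304). Creb1 and Crem, transcription factors of the pathway, had log2 differences of 0.08 and -0.10, and the coactivator genes Crtc1, Crtc2 and Crtc3 of 0.18, -0.04 and -0.26. The list's median was -0.01, against -0.02 for all genes tested.

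Among relatives of Creb3l1 and the proteases that free them, 1 of 6 tested genes was higher and 1 lower (median -0.17). Creb3l2, the closest relative, averaged 1281 ± 118 normalized counts in shControl and 889.9 ± 104 in the other group (SD over 5 nuclei; log2 difference -0.53, SE 0.0960, limma adjusted p = 0.00274), and its groups did not overlap. Mbtps2, which codes for the site-2 protease, rose by 0.39 (SE 0.113, limma adjusted p = 0.0319), a call lost when shControl replicate 1, 2 or 5 or shOpn3 replicate 2, 3 or 4 was left out. Mbtps1, the site-1 protease gene, had a log2 difference of -0.16 (limma adjusted p = 0.257).

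Of 9 AP-1 and activity-induced factors, which are switched on when neurons fire or are injured, 3 were higher and 0 lower (median 0.98). With the block 6 were higher. Fosb, Egr1 and Fos rose by 1.68, 1.36 and 1.06 (SE 0.235, 0.248 and 0.208; limma adjusted p from 0.000695 to 0.00424). Fos had 229.97 to 519.9 normalized counts in shControl and 550.2 to 919.6 in shOpn3, with no overlap. Of 10 nuclear receptors, Nr2f2 was higher (0.42, SE 0.0956, limma adjusted p = 0.00984) and Esr2, the estrogen receptor beta gene, was lower (-0.81, SE 0.188, limma adjusted p = 0.0106). The median of that list was 0.13, and the glucocorticoid receptor gene Nr3c1 stood at 0.10 (limma adjusted p = 0.429).

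All 4 factors that specify magnocellular neurons were called lower (median -1.27). Otp had 188, 115, 88.8, 113 and 110 normalized counts in shControl replicates 1 to 5 and 91.1, 30.8, 18.7, 23.2 and 24.7 in shOpn3 replicates 1 to 5. The groups met at shOpn3 replicate 1, which lay above the lowest control, while in the remaining shOpn3 samples Otp was under every control. The log2 differences of Pou3f2, Otp and Sim1 were -1.50, -1.89 and -1.03 (SE 0.171, 0.369 and 0.196; limma adjusted p from 0.000306 to 0.00414). Arnt2, the partner of Sim1, fell by 0.24 (SE 0.0743, limma adjusted p = 0.0382) and lost its call without any one of shControl replicates 1 to 4 or shOpn3 replicates 3 to 5.

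Of 10 RNA-binding and poly(A) proteins 1 was higher and 2 were lower (median -0.07), and with the block 5 were called, against 18.8% and 30.3% of all genes. Caprin1, the relative of Caprin2, had a log2 difference of 0.09 (SE 0.0907, limma adjusted p = 0.513), and its partner genes G3bp1 and G3bp2 of -0.09 and -0.06. Pabpc1, the cytoplasmic poly(A)-binding protein gene, averaged 7190.2 ± 471 normalized counts in shControl and 10886 ± 2167 in the other group (SD over 5 nuclei; log2 difference 0.58, limma adjusted p = 0.00581). Cpeb1, which codes for a regulator of poly(A) tail length, fell by 0.49 (SE 0.105, limma adjusted p = 0.00667). Elavl4, the other gene called lower, had a log2 difference of -0.57 (SE 0.170, limma adjusted p = 0.0338). Its call was lost without any one of shControl replicates 2, 3 and 4 or shOpn3 replicates 3, 4 and 5.

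Of 10 precursor processing and granule genes tested 1 was higher and 1 lower (median -0.19), a share near the 18.8% of all genes. Pcsk1, a convertase that cuts prohormones, had 2655, 3896, 4311, 4247 and 1573 normalized counts in shControl replicates 1 to 5 and 1671, 2240, 1594, 1630 and 966 in shOpn3 replicates 1 to 5. As with Caprin2, shControl replicate 5 lay inside the shOpn3 range. Its log2 difference was -0.997 (SE 0.280, limma adjusted p = 0.0265), and the call was lost without any one of shControl replicates 2, 3 and 4 or shOpn3 replicates 3 and 5. Cpe, a carboxypeptidase gene, had a log2 difference of 0.28 (limma adjusted p = 0.0448) and kept its call only when shControl replicate 4 was the sample left out.

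Of the genes for receptors, breakdown and release, 2 of 6 could be tested. Cd38, which supports oxytocin release, averaged 1602 ± 147 normalized counts in shControl and 2232 ± 201 in the other group (SD over 5 nuclei; log2 difference 0.48, SE 0.0862, limma adjusted p = 0.00261). Avpr1a, a vasopressin receptor gene, had a log2 difference of -0.41 that was not called (limma adjusted p = 0.105) and was called with the block (limma adjusted p = 0.0382) and without shControl replicate 1. Oxtr had 5.09 to 25.5 normalized counts in shControl and 4.11 to 16.3 in shOpn3, below the filter on the mean, and Avpr2 had 0 reads in all libraries.

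Peptides that magnocellular neurons also make moved in both directions, with 2 of 9 higher and 4 lower (median -0.21). Pdyn, the precursor of dynorphin, which vasopressin neurons store with their own peptide, had 18198, 18874, 17951, 21223 and 9093 normalized counts in shControl replicates 1 to 5 and 6195, 11021, 5196, 7870 and 2894 in shOpn3 replicates 1 to 5. As with Caprin2, shControl replicate 5 lay inside the shOpn3 range. The log2 difference of Pdyn was -1.44 (SE 0.319, limma adjusted p = 0.00802). Trh and Gal fell by 1.68 and 1.35 (SE 0.236 and 0.195), and Cartpt was also called lower. Cck, which oxytocin neurons can make and which is common in cortex, averaged 125 ± 79.1 normalized counts in shControl and 427 ± 63.0 in the other group (SD over 5 nuclei; log2 difference 1.98, limma adjusted p = 0.00217). Crh rose by 0.91 (limma adjusted p = 0.0383), a call lost without any one of shControl replicates 1, 2, 3 and 5 or shOpn3 replicates 2, 3 and 4. Slc17a7, given above, was also higher in shOpn3. In shControl both genes were highest in replicates 1 and 5. In shOpn3 Slc17a7 was highest in replicate 3 (1991), where Cck stood at 379. Cck was highest there in replicate 1 (508), where Slc17a7 stood at 1046. Whether the rises of Cck and Slc17a7 are linked was not tested.

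**Figure D5:**
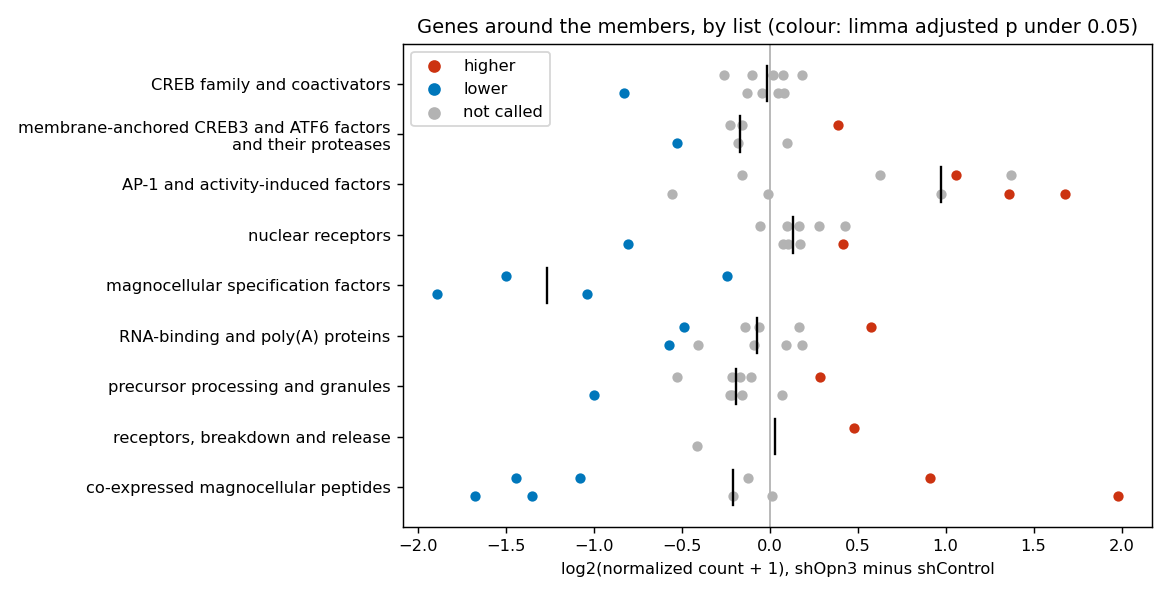
Log2 differences, shOpn3 minus shControl, of the tested genes of 9 lists around the members (points, red for called higher, blue for called lower, grey for not called at a limma adjusted p under 0.05; black bars, list medians). The 4 magnocellular specification factors all lie below 0, while the CREB factors and coactivators lie near 0 apart from Rasd1.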

How the data were processed

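RNA sequencing of 10 supraoptic nuclei was used as a single deposited table. Per the submitters' processing notes FastQC, STAR, featureCounts and DESeq2 were used; versions, strand setting and genome build were not given in the sources used here. The sample columns hold a signal that the authors made by dividing read counts by a size factor, and whole reads were recovered for 100% of positive values in each library (within 0.001 of a whole number). The table also holds, per the file headers, the authors' mean signal, log2 fold changes, Wald score, p-values and adjusted p-values. A DESeq2 refit gave the authors' deposited log2 fold changes for the members (Avp -2.23, Oxt -2.28, Creb3l1 -0.16, Caprin2 -1.75, Giot1 0.30).

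Each normalized count was raised by 1 and put on a log2 scale, the 15597 genes whose mean reached 10 were kept, and limma 3.58.1 (R 4.3.3, eBayes with trend) compared the groups without a block, with Benjamini-Hochberg adjustment over all genes and a threshold of 0.05. edgeR 4.0.16 and DESeq2 1.42.0 on the recovered reads were alternatives. The script was tested on simulated data. No label says that equal numbers mark the same rat. Equal numbers deviated together from the means of their groups in all 5 pairs (r from 0.12 to 0.44, median 0.40). Other pairings had a median of -0.21 and reached 0.36. Centring on the group means pushes other pairings down when equal numbers deviate together, so their negative median is not a separate contrast. Replicate 4 stood out least: its control correlated more with shOpn3 replicates 2 and 3 (0.24 each) than with shOpn3 replicate 4 (0.12). The numbers were taken to pair the samples, which these correlations do not settle. Unpaired p-values measure the spread between nuclei.

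The members and lists were chosen with earlier results of these data known. Named were the members, Opn3, the 3 nearest profiles of each member, and list genes, led by up to 3 called per list. Sequences are from RefSeq (GRCr8). The build of the counts is unknown, so no gene coordinates of theirs are given.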

Additional observations from a re-analysis of the deposited data

Results flagged for a closer look

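In 94 groups of 5 values (37 genes and 10 ratios, each in 2 groups), 8 had a sample whose gap to its nearest neighbour took up an unusually large part of the group's range, where about 4.7 would be flagged by chance at 1 in 20. Of the 8 flags, 6 lay in the 2 samples numbered 1 and 2 lay in shControl replicate 5. Tmem114 and Otp were named as near profiles of Oxt, and the ratios reuse members, so the flags are not independent of each other. Oxt stood at 56716 normalized counts in shControl replicate 1 (next 21354), with Tmem114 at 271 (next 179) and Otp at 188 (next 115). In the same sample the log2 ratio of Oxt over Giot1 was 7.68 (next 5.97). In shOpn3 replicate 1, Otp stood at 91.1 (next 30.8) and Pou3f2 at 335 (next 205). In shControl replicate 5, RGD1560925 stood at 135 (next 519.9) and the log2 ratio of Caprin2 over Giot1 at 3.002 (next 4.53). The differences of Avp, Oxt and Caprin2 kept their calls without either of these control samples and without either number, and the cause of the gaps was not tested.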

How the results depend on the processing

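Avp, Oxt and Caprin2 were called lower in each of the 28 alternative fits, with log2 differences from -2.66 to -2.07, from -2.43 to -1.90 and from -2.22 to -1.46, and Creb3l1 in none of them. Giot1 was called with the replicate block in limma (0.31), edgeR (0.30) and DESeq2 (0.31) and in no other fit, with 0.21 to 0.42 when samples were left out. The count of genes called was 2940; with the replicate block it was 4726 in limma, 4777 in edgeR and 4555 in DESeq2, with voom and sample quality weights 5085, and from 1604 to 3056 with samples left out (1895 without replicate 2 and 1604 without replicate 3, fits with fewer samples). With the replicate block as sign-flip tests over 5 pairs, 6 ratios lost their call (adjusted p = 0.0893, the smallest p being 0.0625) at the same values: Avp over Creb3l1 -2.17, Avp over Giot1 -2.66, Oxt over Creb3l1 -2.02, Oxt over Giot1 -2.51, Creb3l1 over Caprin2 1.50 and Caprin2 over Giot1 -1.99. Leaving samples out gave from -2.55 to -1.94, from -3.00 to -2.32, from -2.37 to -1.77, from -2.82 to -2.11, from 1.30 to 1.82 and from -2.31 to -1.81 in that order, with adjusted p of at most 0.0952 and calls lost for all 6 without both samples of replicate 2, 3, 4 or 5 but for none of the 6 without those of replicate 1 (adjusted p = 0.0476). With both samples of a number left out, the exact permutation test cannot go below p = 0.0286. Avp over Giot1 stood at that p whichever number was left out. Its call was thus lost through the p-values of other ratios in the adjustment, not through its own. Why the p-values of those other ratios moved was not tested. The lowest value of a member was 252.3 normalized counts, far above the filter on the mean. The blocked fits changed no other member's call. The median of all genes tested stayed between -0.03 and 0.00 on the log2 scale in all fits.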
